A study of Homo sapiens with 8 samples.

Results

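The enzymes and regulators that make cholesterol and fatty acids were followed in U251, a human glioblastoma cell line, after inhibition of PRMT5, a methyltransferase that modifies arginine residues symmetrically. The group comprised 31 genes of the 61906 in the deposited table, chosen by name: 7 enzymes of the mevalonate steps, 11 enzymes from squalene to cholesterol, 4 genes that control the sterol regulatory element-binding proteins (SREBPs), 6 enzymes of fatty acid synthesis and desaturation, and 3 genes of sterol transport. All cultures carried the wild-type label and were grown in medium with serum, and they differed in treatment alone, vehicle (DMSO) or LLY-283 (100 nM), a small-molecule PRMT5 inhibitor, for 24 h. There were 4 biological replicates per group, each sequenced as a poly(A) RNA library. A single cell line and a single time limit how far the values carry to other cells. The labels do not say how the replicate cultures were separated, so p-values measure the spread between these 8 samples. In bulk samples, fewer cells of a kind and less RNA per cell cannot be told apart.

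Cells make cholesterol from acetyl-CoA through mevalonate, isoprenoid diphosphates, squalene and lanosterol, and make saturated fatty acids from acetyl-CoA through malonyl-CoA, after which desaturases introduce double bonds. SREBPs are transcription factors held in the endoplasmic reticulum by SCAP and INSIG proteins while sterols are plentiful, and they are carried to the Golgi, cleaved and sent to the nucleus when sterols fall. The product of SREBF2 acts mainly on cholesterol genes and that of SREBF1 mainly on fatty acid genes. Glioblastoma cells are known for active SREBP signalling, and brain cells make most of their own cholesterol.

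Levels were in TPM (transcript abundance scaled by transcript length and to a fixed total per library), and 14478 genes averaging 1 TPM or more were compared between the groups with limma on log2(TPM + 0.1) and Benjamini-Hochberg adjustment over all of them. TPM keeps no record of read number, so the depth is unknown and no counting interval is given. Correlations between replicates of a group lay between 0.963 and 0.971. PRMT5 itself was expressed at a mean of 100.2 TPM with a log2 fold change of 0.01 (adjusted p = 0.944, limma). LLY-283 replicate 4 stood apart in the share of TPM from the mitochondrial genome, 7.19% against 10.15% to 11.0% in the other 7 libraries. Its part in the results was not tested, and without it 3 of the 31 genes rose and 14 fell, against 5 and 12 with all libraries. Of 8 glial and glioma markers, 6 were expressed at 1 TPM or more, with summed levels of 7170 to 7340 TPM in vehicle and 6907 to 7266 TPM in LLY-283 libraries, while CHI3L1 and OLIG2 were near 0. VIM and CD44 made up most of these sums, and single markers moved both ways: GFAP (log2 fold change -0.25, adjusted p = 0.00082), SOX2 (-0.27, adjusted p = 0.000349) and NES (-0.17, adjusted p = 0.000731) fell and CD44 rose (0.11, adjusted p = 0.0168). Those changes are of the size of many of the members' changes, and their part in the results was not tested. Immune markers summed to under 1 TPM in every library (0 of 5 reached 1 TPM), endothelial markers to at most 2.93 TPM (KDR alone reached 1 TPM), and epithelial markers to between 226 and 268 TPM, almost all of it KRT18, with EPCAM and CDH1 near 0.

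All 31 genes were expressed and tested. After LLY-283, 5 of them rose and 12 fell at an adjusted p-value under 0.05, and 14 did not pass the test. These 17 genes made up 54.8% of the group, against 26.2% of all genes tested. Increases were found in 16.1% of the group against a background of 8.61%, and decreases in 38.7% against 17.6%. The count of increases was 3 (9.68%) in 7 of the 8 fits with a library left out, against 6.13% to 10.4% of all genes, the share of all genes being the higher without LLY-283 replicate 4. It was 1 (3.23%, against 6.56% of all genes) with a replicate block and correction for GC content and length, so the higher share of increases did not hold there. With correction for GC content and length alone the excess was small (9.68% of the group against 8.92% of all genes). With median-of-ratios scaling 16.1% of the group rose, and so did 2165 of the 14478 genes tested, which left the shares close. None of the changes exceeded 1.5-fold, a size that 3.87% of all genes tested passed together with the adjusted p-value. The median log2 fold change was -0.13, and it was -0.05 over all genes tested. For 20 of the 31 genes (64.5%, background 29.2%) the libraries of the 2 groups were fully separated, with LLY-283 below vehicle for 15 (48.4%, background 19.6%) and above for 5 (16.1%, background 9.63%). By branch, 5 of 6 genes of fatty acid synthesis and desaturation fell and none rose (median log2 fold change -0.22), while of 18 cholesterol enzymes 5 rose and 4 fell (median -0.04). The difference between the branches was not tested.

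**Figure D1:**
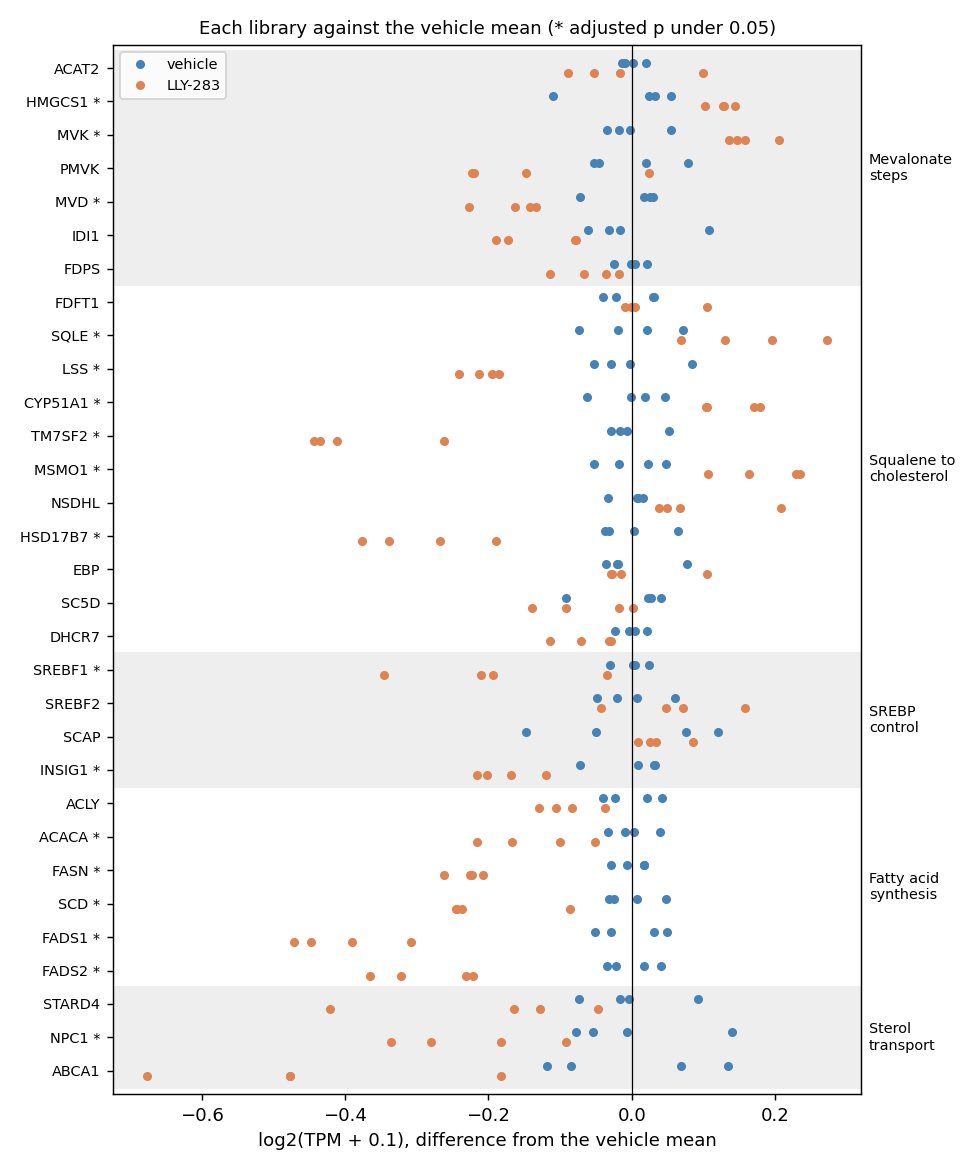
Difference of each library from the vehicle mean on the log2(TPM + 0.1) scale (horizontal axis) for the 31 genes (vertical axis, in pathway order, with shaded bands for the 5 roles). Each point is 1 library, blue for vehicle and orange for LLY-283, and an asterisk marks an adjusted p-value under 0.05 (limma). All points of FASN, FADS1 and FADS2 in LLY-283 lie left of the vehicle points, and those of MVK, CYP51A1 and MSMO1 lie to the right.

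The promoters are described first, since SREBPs act on these genes through them. RefSeq promoter windows on GRCh38.p14, from 250 bases before to 50 bases after the start, matched 27 of the 31 genes by symbol, and the first window listed per gene was searched on both strands for 4 motifs. CCAAT, the box bound by NF-Y, a factor that acts with SREBPs, occurred in 17 of 27 members (63.0%), 35.7% of all 27305 windows and 37.7% of the 10365 windows of genes tested. Among cholesterol enzymes 12 of 15 windows held it, and among fatty acid genes 2 of 5. GGGCGG, the GC box of Sp1, occurred in 25 of 27 members (92.6%), 44.6% of all windows and 70.2% of those of genes tested. CACGTG, an E-box, occurred in 5 of 27 members (18.5%), 7.43% of all windows and 10.0% of those of genes tested. TCACNCCAC, a strict form of the sterol regulatory element, occurred in the SREBF2 window alone (TCACCCCAC, positions -133 to -125 before the start), in 1.15% of all windows and in 1.07% of those of genes tested. Of the members that rose, 3 of 4 with a window held CCAAT, as did 6 of 11 that fell and 8 of 12 that did not pass the test. A match shows letters and not binding.

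The stretches of the windows in which GENCODE annotates no exon are printed here 5′ to 3′ on the strand of the gene for 3 members that rose (HMGCS1, MVK and MSMO1) and 5 that fell (MVD, LSS, HSD17B7, INSIG1 and SCD), which are the members that changed and whose stretch holds CCAAT, so that the boxes can be set side by side. Capitals mark CCAAT and GGGCGG on either strand (ATTGG and CCGCCC on the other), and neighbouring GC boxes may overlap by a base or more. They come from chr5:43313513-43313662 (minus strand) for HMGCS1, chr12:109573581-109573792 (plus strand) for MVK, chr4:165327419-165327666 (plus strand) for MSMO1, chr16:88663162-88663297 (minus strand) for MVD, chr21:46228825-46229024 (minus strand) for LSS, chr1:162790452-162790701 (plus strand) for HSD17B7, chr7:155297628-155297775 (plus strand) for INSIG1 and chr10:100346983-100347232 (plus strand) for SCD.
HMGCS1: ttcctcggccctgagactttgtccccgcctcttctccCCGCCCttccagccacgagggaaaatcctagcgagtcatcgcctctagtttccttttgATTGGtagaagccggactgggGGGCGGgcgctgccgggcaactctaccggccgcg
MVK: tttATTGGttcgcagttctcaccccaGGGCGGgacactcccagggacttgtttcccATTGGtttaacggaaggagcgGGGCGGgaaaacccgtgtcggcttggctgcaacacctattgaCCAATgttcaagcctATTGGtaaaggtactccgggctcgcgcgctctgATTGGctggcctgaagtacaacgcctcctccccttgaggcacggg
MSMO1: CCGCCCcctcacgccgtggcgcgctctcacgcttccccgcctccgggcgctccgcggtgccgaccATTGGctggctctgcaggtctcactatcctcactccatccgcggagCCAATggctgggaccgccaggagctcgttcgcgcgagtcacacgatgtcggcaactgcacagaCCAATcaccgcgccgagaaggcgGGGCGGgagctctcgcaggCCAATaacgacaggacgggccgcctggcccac
MVD: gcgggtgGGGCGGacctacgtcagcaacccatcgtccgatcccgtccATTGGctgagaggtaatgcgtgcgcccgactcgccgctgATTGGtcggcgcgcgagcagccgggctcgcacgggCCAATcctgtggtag
LSS: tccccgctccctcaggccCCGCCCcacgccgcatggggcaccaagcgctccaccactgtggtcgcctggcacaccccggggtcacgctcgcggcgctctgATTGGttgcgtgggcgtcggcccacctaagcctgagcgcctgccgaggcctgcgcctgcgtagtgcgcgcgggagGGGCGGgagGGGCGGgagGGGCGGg
HSD17B7: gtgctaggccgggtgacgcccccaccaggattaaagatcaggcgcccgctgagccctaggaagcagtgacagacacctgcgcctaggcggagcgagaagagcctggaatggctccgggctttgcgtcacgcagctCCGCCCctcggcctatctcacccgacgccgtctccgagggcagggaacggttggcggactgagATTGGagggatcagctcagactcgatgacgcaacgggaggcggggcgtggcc
INSIG1: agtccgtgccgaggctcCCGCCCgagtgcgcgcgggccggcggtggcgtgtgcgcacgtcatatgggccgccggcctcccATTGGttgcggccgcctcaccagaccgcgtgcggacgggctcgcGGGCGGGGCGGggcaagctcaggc
SCD: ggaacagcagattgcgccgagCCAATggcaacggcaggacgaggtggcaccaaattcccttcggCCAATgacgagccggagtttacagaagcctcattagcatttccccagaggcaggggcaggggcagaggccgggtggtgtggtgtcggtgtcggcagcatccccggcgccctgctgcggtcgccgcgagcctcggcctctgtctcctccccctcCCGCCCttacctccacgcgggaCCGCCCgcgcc
In these stretches MVK has 5 CCAAT boxes and MSMO1 has 4, and HMGCS1 has 1. MVD has 3, SCD has 2, and LSS, HSD17B7 and INSIG1 have 1 each. The windows of CYP51A1, which rose, and of SREBF1, ACACA, FADS1, FADS2 and NPC1, which fell, held no CCAAT.

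To determine how LLY-283 affected fatty acid synthesis, the 6 enzymes were followed in the order of their steps. ACLY, which makes cytosolic acetyl-CoA from citrate, ranged from 138 to 146 TPM in vehicle and from 129.6 to 138 TPM in LLY-283 libraries, and the groups overlapped (log2 fold change -0.09 ± 0.031 (SE), adjusted p = 0.0604, limma). It passed the test under 5 of the 21 alternatives, among them quantile normalization (adjusted p = 0.0234) and the fit without LLY-283 replicate 4 (adjusted p = 0.0194), in a range of 0.0194 to 0.571. ACACA, the acetyl-CoA carboxylase that makes malonyl-CoA and commits carbon to fatty acids, had 69.7, 70.8, 73.3 and 71.4 TPM with vehicle and 68.8, 61.4, 63.5 and 66.5 TPM with LLY-283. It fell by 8.77% without overlap (log2 fold change -0.13 ± 0.04 (SE), adjusted p = 0.0349). That call was lost when 6 of the 8 libraries were left out in turn, with adjusted p-values between 0.0194 and 0.0862, and held without LLY-283 replicate 1 or 4.

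FASN (ENSG00000169710, chromosome 17, 82078338 to 82098294 of GRCh38), the synthase that builds palmitate, had 335, 340.2, 340.1 and 329.5 TPM in vehicle libraries and 287, 291, 288 and 280.2 TPM in LLY-283 libraries. Its mean fell from 336 ± 5.11 to 287 ± 4.62 TPM (mean ± SD, n = 4) with the smallest standard error of the 31 genes and with every treated library below every vehicle library (log2 fold change -0.23 ± 0.024 (SE), adjusted p = 0.000274). SCD (ENSG00000099194, chromosome 10, 100347233 to 100364826), which turns saturated into monounsaturated fatty acids, was the most abundant transcript of all 31 and had 658, 644, 677 and 640.1 TPM with vehicle. With LLY-283 it had 617, 556, 553 and 552 TPM, replicate 1 lying above the other 3. The mean fell by 13% (log2 fold change -0.20 ± 0.04 (SE), adjusted p = 0.00566).

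FADS1 and FADS2 encode the desaturases that make long polyunsaturated fatty acids such as arachidonic acid. FADS1 (ENSG00000149485, chromosome 11, 61799627 to 61829318) lies on the strand opposite to FADS2 (ENSG00000134824, chromosome 11, 61792980 to 61867354), within its annotated span, and 490 exonic bases of their annotations overlap. FADS1 had 118, 112, 117 and 110.1 TPM with vehicle and 92.1, 87.0, 82.2 and 83.6 TPM with LLY-283. It fell from 114 ± 3.76 to 86.2 ± 4.41 TPM (mean ± SD, n = 4), the largest decrease among enzymes of this branch at 24.4% (log2 fold change -0.40 ± 0.041 (SE), adjusted p = 0.000242). FADS2 had 347, 365, 359 and 349.7 TPM with vehicle and 303, 284, 276 and 305 TPM with LLY-283, a decrease of 17.9% (log2 fold change -0.28 ± 0.037 (SE), adjusted p = 0.000755). Both genes fell without overlap, and FEN1, which shares 49 exonic bases with FADS2 on the same strand, had a log2 fold change of -0.04 (adjusted p = 0.51). The ratio of FADS1 to FADS2 within a library was 0.321 ± 0.015 with vehicle and 0.296 ± 0.015 with LLY-283 (SD, n = 4 each), and these ranges overlapped. The calls of FASN, SCD, FADS1 and FADS2 held under all 21 alternatives. The summed level of the 6 enzymes was 1673 ± 29.5 TPM with vehicle and 1432 ± 47.7 TPM with LLY-283, 14.4% lower, where the 18 cholesterol enzymes summed to 1274 ± 17.8 and 1257 ± 30.4 TPM (SD, n = 4 each).

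**Figure D2:**
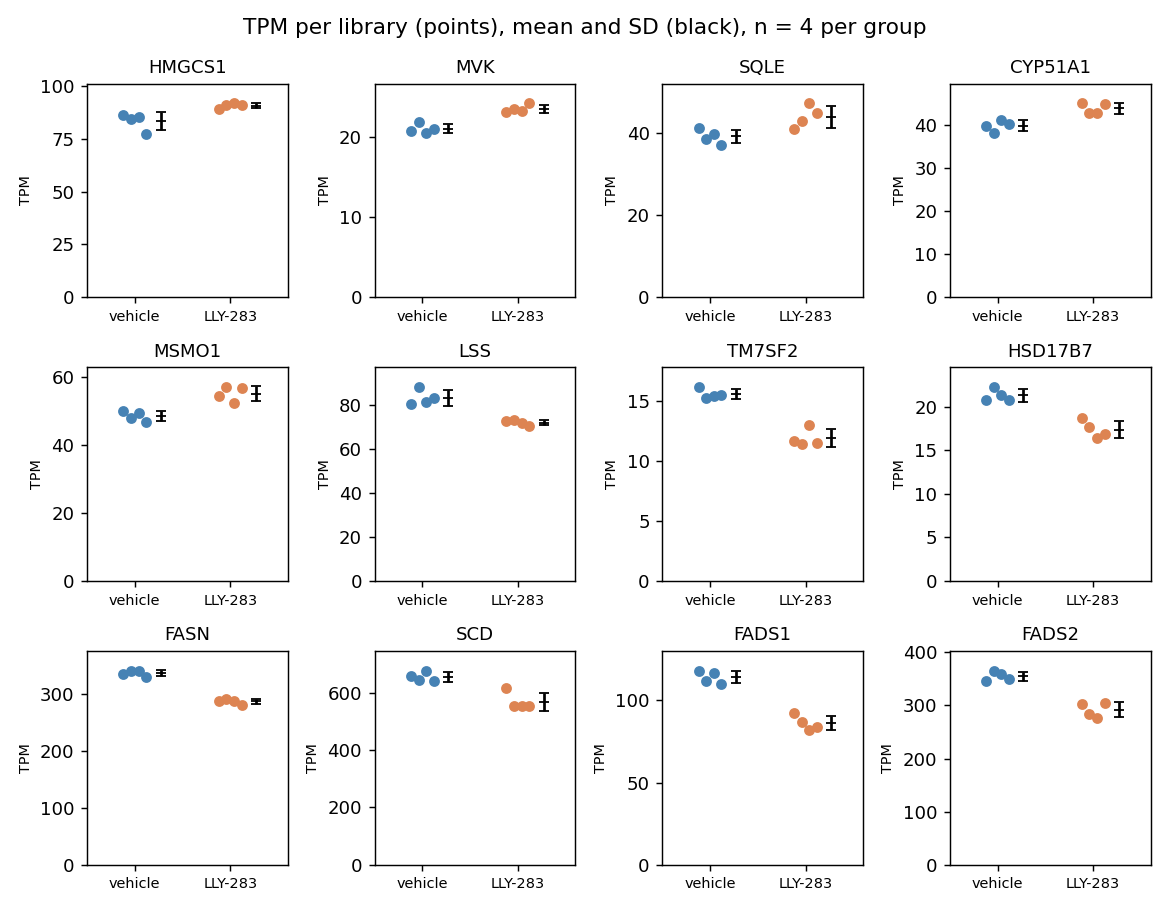
TPM (vertical axes, from 0) of 12 members in vehicle (blue) and LLY-283 (orange) libraries, each point 1 library, with the mean and SD of 4 libraries in black beside them. The 4 FASN values with LLY-283 lie between 280.2 and 291 TPM against 329.5 to 340.2 TPM with vehicle, whereas SQLE reaches 47.2 TPM with LLY-283 and its groups touch at 41.0 and 41.1 TPM.

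The mevalonate steps showed changes in both directions. ACAT2, the cytosolic thiolase that starts the pathway, ranged from 95.4 to 97.7 TPM with vehicle and from 90.6 to 103 TPM with LLY-283 (log2 fold change -0.01 ± 0.04 (SE), adjusted p = 0.824). It shares 454 exonic bases with TCP1 on the opposite strand, which rose (log2 fold change 0.23, adjusted p = 0.000798). HMGCS1, which condenses acetoacetyl-CoA and acetyl-CoA to the precursor of mevalonate, had 86.5, 84.7, 85.2 and 77.2 TPM with vehicle, with replicate 4 the lowest, and 89.5, 91.1, 92.1 and 91.0 TPM with LLY-283. It rose by 8.99% (log2 fold change 0.13 ± 0.038 (SE), adjusted p = 0.0385), but passed the threshold in only 1 of the 8 fits with a library left out, that without vehicle replicate 1 (adjusted p 0.0389 to 0.0876).

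MVK (ENSG00000110921, chromosome 12, 109573255 to 109598125), mevalonate kinase, had 20.8, 21.9, 20.6 and 21.0 TPM in vehicle and 23.1, 23.5, 23.3 and 24.3 TPM in LLY-283 libraries. It rose from 21.1 ± 0.573 to 23.6 ± 0.503 TPM (mean ± SD, n = 4) without overlap (log2 fold change 0.16 ± 0.037 (SE), adjusted p = 0.0124), and this was the only increase among the 31 genes that held under all 21 alternatives. MMAB, a cobalamin adenosyltransferase gene on the opposite strand that shares 225 exonic bases with MVK, fell (log2 fold change -0.40, adjusted p = 0.000731), so that the neighbours moved in opposite directions. The strand used in counting is not stated, and reads in the shared bases cannot be assigned.

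PMVK, which adds the next phosphate, overlapped between groups with 41.0 to 44.9 TPM and 36.5 to 43.3 TPM (log2 fold change -0.14 ± 0.059 (SE), adjusted p = 0.106). Without LLY-283 replicate 4, the highest of the treated libraries, it passed the test (adjusted p = 0.0101). Within each library the ratio of PMVK to MVK was 2.02 ± 0.093 with vehicle and 1.64 ± 0.10 with LLY-283 (mean ± SD, n = 4 each), without overlap. MVD, the decarboxylase that yields isopentenyl diphosphate, had 46.3, 46.6, 43.5 and 46.7 TPM with vehicle and 41.5, 40.9, 39.1 and 41.7 TPM with LLY-283. It fell by 10.9% (log2 fold change -0.17 ± 0.037 (SE), adjusted p = 0.0103). IDI1, the isomerase of isopentenyl diphosphate, was lower in each LLY-283 library (32.8 to 35.4 TPM) than in each vehicle library (35.8 to 40.3 TPM) and did not pass the test (log2 fold change -0.13 ± 0.047 (SE), adjusted p = 0.0704). FDPS, which makes farnesyl diphosphate, was the most abundant enzyme of the cholesterol branch, at 286 ± 3.78 TPM with vehicle and 275 ± 7.89 TPM with LLY-283 (log2 fold change -0.06 ± 0.027 (SE), adjusted p = 0.148), and it passed the test without LLY-283 replicate 4 (adjusted p = 0.0481).

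From squalene to cholesterol, 3 enzymes rose, 3 fell and 5 did not pass the test. FDFT1, squalene synthase, ranged from 154 to 162 TPM with vehicle and from 157 to 170.05 TPM with LLY-283 (log2 fold change 0.02 ± 0.034 (SE), adjusted p = 0.63). SQLE, squalene epoxidase and a rate-limiting enzyme, had 41.1, 38.6, 39.7 and 37.1 TPM with vehicle and 41.0, 42.8, 47.2 and 44.8 TPM with LLY-283. Its mean rose by 12.4%, but the lowest treated library lay just under the highest vehicle library (log2 fold change 0.17 ± 0.05 (SE), adjusted p = 0.0371), and the call was lost in 6 of the 8 fits with a library left out (adjusted p 0.024 to 0.10) and held without LLY-283 replicate 1 or vehicle replicate 1. LSS (ENSG00000160285, chromosome 21, 46188141 to 46228824), which closes the rings to lanosterol, had 80.2, 88.2, 81.5 and 83.0 TPM with vehicle and 72.7, 73.2, 71.7 and 70.4 TPM with LLY-283. It fell from 83.2 ± 3.51 to 72.0 ± 1.23 TPM (mean ± SD, n = 4) without overlap (log2 fold change -0.21 ± 0.035 (SE), adjusted p = 0.00268).

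CYP51A1, the lanosterol demethylase, had 39.7, 38.1, 41.1 and 40.3 TPM with vehicle and 45.0, 42.8, 42.8 and 44.8 TPM with LLY-283. It rose by 10.2% (log2 fold change 0.14 ± 0.036 (SE), adjusted p = 0.0204), and the call was lost without LLY-283 replicate 1 (adjusted p = 0.0539). The gene shares 2827 exonic bases on the same strand with ENSG00000289027 (mean 1.12 TPM) and 2844 with ENSG00000285772 (0.07 TPM), and RSEM divides reads among them. TM7SF2 (ENSG00000149809, chromosome 11, 65111845 to 65116384), a sterol reductase of the following step, was the least abundant enzyme and had 16.2, 15.3, 15.5 and 15.6 TPM with vehicle against 11.7, 11.5, 13.0 and 11.5 TPM with LLY-283. Its decrease of 23.6% was without overlap and was the largest among cholesterol enzymes (log2 fold change -0.39 ± 0.053 (SE), adjusted p = 0.000903). VPS51, which shares 18 exonic bases with it on the same strand, had a log2 fold change of -0.03 (adjusted p = 0.794).

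MSMO1 (ENSG00000052802, chromosome 4, 165327667 to 165343164), the oxidase that starts removal of the methyl groups, had 50.1, 47.9, 49.2 and 46.7 TPM with vehicle and 54.3, 57.0, 52.2 and 56.8 TPM with LLY-283. It rose from 48.5 ± 1.48 to 55.1 ± 2.3 TPM (mean ± SD, n = 4), the largest increase of the group on the log2 scale (log2 fold change 0.18 ± 0.039 (SE), adjusted p = 0.00886). NSDHL, a dehydrogenase of the same step, was above the vehicle range in each LLY-283 library (30.2 to 34.0 against 28.8 to 29.8 TPM) but did not pass the test (log2 fold change 0.09 ± 0.044 (SE), adjusted p = 0.158). HSD17B7, the ketoreductase that completes the step, had 20.8, 22.2, 21.3 and 20.7 TPM with vehicle and 18.6, 17.6, 16.4 and 16.8 TPM with LLY-283. It fell by 18.4% without overlap (log2 fold change -0.29 ± 0.05 (SE), adjusted p = 0.00302), and its pseudogene copy HSD17B7P2 had a mean of 1.08 TPM. The enzymes of a single demethylation step thus included an increase, a decrease and a gene that did not pass the test.

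The last enzymes of the pathway did not pass the test. EBP, the sterol isomerase, ranged from 109 to 118 TPM with vehicle and from 110.0 to 121 TPM with LLY-283 (log2 fold change 0.01 ± 0.04 (SE), adjusted p = 0.901). SC5D, the desaturase, ranged from 33.6 to 36.9 and from 32.5 to 35.8 TPM (log2 fold change -0.06 ± 0.045 (SE), adjusted p = 0.349). DHCR7, the final reductase, was lower in each LLY-283 library (72.0 to 76.4 TPM) than in each vehicle library (76.7 to 79.1 TPM), a mean difference of -4.11% (log2 fold change -0.06 ± 0.03 (SE), adjusted p = 0.161).

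Ratios of neighbouring enzymes within a library do not depend on the scaling of the libraries. Those given here and elsewhere in the text were chosen after their values were seen and are a description. Of the 21 ratios formed, 10 did not overlap between the groups. The share among ratios of other gene pairs was not worked out, so the count is not a result about these steps. A ratio of a gene that rose to a gene that fell repeats the changes given above. The ratio of CYP51A1 to LSS was 0.479 ± 0.032 with vehicle and 0.609 ± 0.023 with LLY-283. The ratio of TM7SF2 to CYP51A1 went the other way, from 0.393 ± 0.015 to 0.273 ± 0.022, and that of MSMO1 to TM7SF2 from 3.10 ± 0.076 to 4.63 ± 0.44 (SD, n = 4 each). The groups did not overlap in these ratios. They overlapped for IDI1 to MVD (0.818 ± 0.046 and 0.838 ± 0.019) and for DHCR7 to SC5D (2.18 ± 0.10 and 2.18 ± 0.14).

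**Figure D3:**
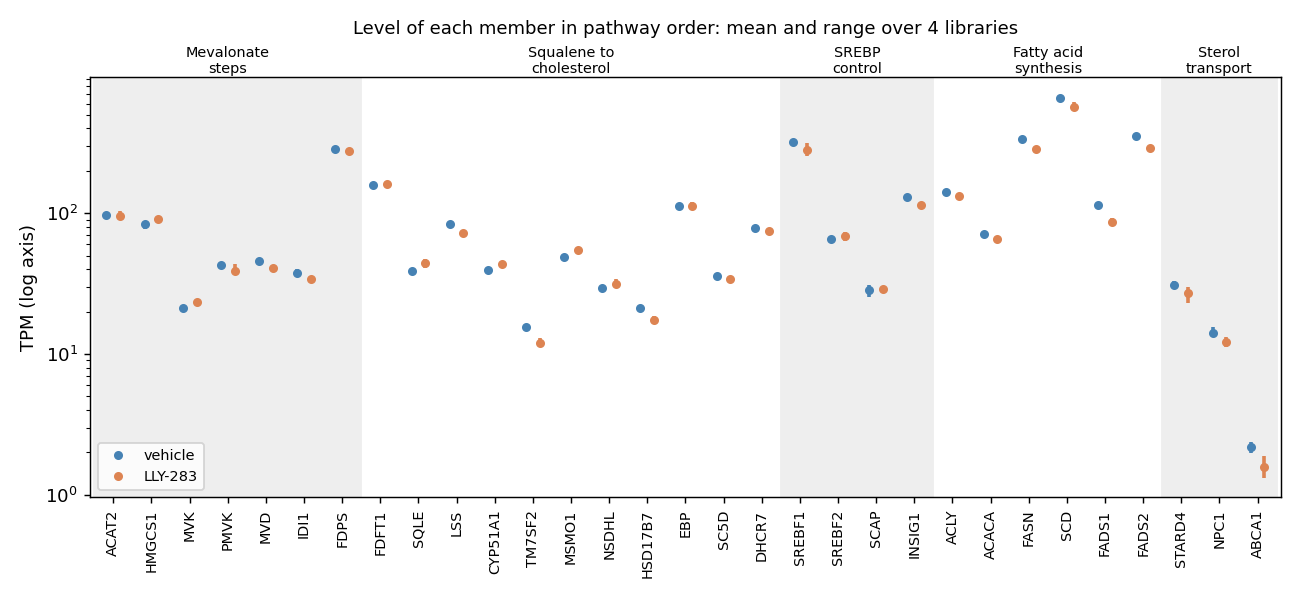
Mean TPM (points, log axis) and range over 4 libraries (lines) of the 31 genes in pathway order, blue for vehicle and orange for LLY-283. SCD stands highest at a mean of 612 TPM and ABCA1 lowest at 1.87 TPM over all 8 libraries.

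Levels per length spanned a 327-fold range, from 612 TPM for SCD to 1.87 TPM for ABCA1 over all 8 libraries, and 28 of the 31 genes lay above the median level of genes tested (17.1 TPM). SCD was separate from the next gene in every library. FADS2, FASN, SREBF1 and FDPS followed, at 324, 311, 302 and 281 TPM, and neighbours in this order overlapped over the 8 libraries. FDFT1 followed and was separate from both its neighbours. From ACLY down to SREBF2 neighbouring genes overlapped, as they did from MVD down to SCAP, with MSMO1 standing separate in between. Near the lower end, MVK overlapped HSD17B7 and TM7SF2 overlapped NPC1. The coefficient of variation between replicates was 1.06% to 8.79% with vehicle (median 3.24%) and 1.20% to 15.4% with LLY-283 (median 4.57%), the highest in both groups being ABCA1.

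Among the genes that control SREBPs, SREBF1 (ENSG00000072310, chromosome 17, 17810399 to 17837002) had 323, 316, 328 and 323 TPM with vehicle and 315, 282, 279 and 254 TPM with LLY-283. The highest treated library lay just under the lowest vehicle library and the treated libraries spread widely. The mean fell from 322 ± 5.12 to 282 ± 25.2 TPM (mean ± SD, n = 4; log2 fold change -0.20 ± 0.056 (SE), adjusted p = 0.0288), and the call was lost in 6 of 8 fits with a library left out (adjusted p 0.00452 to 0.0778, held without LLY-283 replicate 1 or 4) and under quantile and median-of-ratios scaling. SREBF1 shares 556 exonic bases with RAI1 on the opposite strand (log2 fold change 0.02, adjusted p = 0.744). Gene totals do not separate the SREBF1 transcripts that differ in their first exon. SREBF2 had 66.0, 63.5, 68.5 and 64.7 TPM with vehicle and 67.9, 63.7, 69.0 and 73.2 TPM with LLY-283, and the groups overlapped (log2 fold change 0.06 ± 0.045 (SE), adjusted p = 0.369). The ratio of SREBF1 to SREBF2 within a library was 4.91 ± 0.090 with vehicle and 4.14 ± 0.52 with LLY-283 (mean ± SD, n = 4 each), without overlap. The microRNA genes MIR33B and MIR33A, which lie within introns of SREBF1 and SREBF2, were listed at 0.

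SCAP, the escort of SREBPs, had 25.6, 30.8, 27.4 and 29.9 TPM with vehicle and 29.0, 30.1, 28.5 and 28.9 TPM with LLY-283 (log2 fold change 0.04 ± 0.058 (SE), adjusted p = 0.661). INSIG1 (ENSG00000186480, chromosome 7, 155297776 to 155310235), which retains SCAP in the endoplasmic reticulum and is itself a target of SREBPs, had 133, 133, 131 and 123 TPM with vehicle and 119, 113, 112 and 115 TPM with LLY-283. It fell by 11.5% without overlap (log2 fold change -0.18 ± 0.034 (SE), adjusted p = 0.00543), a call that held under all 21 alternatives.

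The 3 transport genes had lower means with LLY-283, and 1 passed the test. NPC1, which releases cholesterol from lysosomes, had 13.6, 14.0, 13.3 and 15.5 TPM with vehicle and 12.4, 11.6, 13.2 and 11.2 TPM with LLY-283 (log2 fold change -0.22 ± 0.069 (SE), adjusted p = 0.0421), and its call was lost in 7 of 8 fits with a library left out (adjusted p 0.0301 to 0.111), holding without LLY-283 replicate 3. It shares 619 exonic bases with RMC1 on the opposite strand (log2 fold change 0.14, adjusted p = 0.327). STARD4, a carrier of sterols between membranes, ranged from 29.5 to 33.1 TPM with vehicle and from 23.2 to 30.0 TPM with LLY-283 (log2 fold change -0.19 ± 0.076 (SE), adjusted p = 0.0948). ABCA1, the exporter of cholesterol to apolipoproteins, was the lowest gene, with 2.04, 1.99, 2.39 and 2.28 TPM with vehicle and 1.90, 1.53, 1.53 and 1.32 TPM with LLY-283. The groups did not overlap, but the adjusted p-value lay just over the threshold (log2 fold change -0.45 ± 0.15 (SE), adjusted p = 0.0522). It passed under 5 of 20 alternatives, and the adjusted p-value ranged from 0.0169 to 0.189.

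Further genes of these pathways were taken from lists written from general knowledge. Of 26 further cholesterol genes, 25 were tested, 1 rose and 6 fell (28.0% changed, background 26.2%). GGPS1 (ENSG00000152904, chromosome 1, 235327350 to 235344532), which makes geranylgeranyl diphosphate from the farnesyl diphosphate that FDPS supplies, had 23.1, 19.6, 21.1 and 24.0 TPM with vehicle and 13.3, 11.8, 11.9 and 13.8 TPM with LLY-283. It was the only gene of both lists to change by more than 1.5-fold (log2 fold change -0.78 ± 0.078 (SE), adjusted p = 0.000202). GGPS1 overlaps ARID4B on the opposite strand, which had a log2 fold change of 0.03 (adjusted p = 0.728), and ENSG00000285053 on the same strand.

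Of 28 further fatty acid genes, 24 were tested, 1 rose and 5 fell (25.0% changed, background 26.2%). HACD2, a dehydratase of fatty acid elongation, rose (log2 fold change 0.12 ± 0.029 (SE), adjusted p = 0.0153). AACS, which activates acetoacetate for lipid synthesis, had 33.1, 31.2, 31.6 and 33.9 TPM with vehicle and 24.6, 24.7, 24.1 and 25.5 TPM with LLY-283 (log2 fold change -0.39 ± 0.039 (SE), adjusted p = 0.000218). LPCAT3, which places polyunsaturated chains into phospholipids and overlaps EMG1 on the opposite strand, fell (log2 fold change -0.31 ± 0.068 (SE), adjusted p = 0.00918). The share of each list that changed was near the background.

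**Figure D4:**
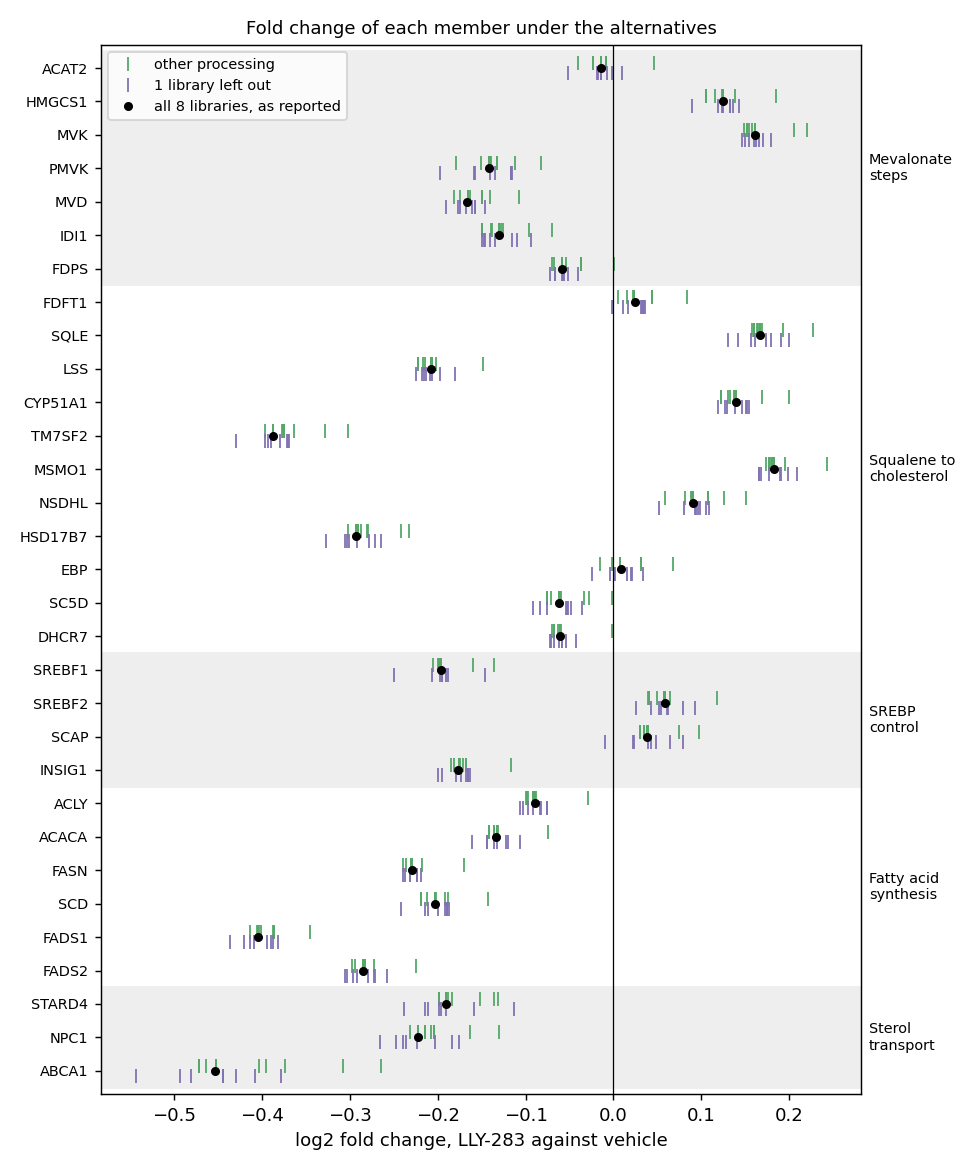
Log2 fold change of LLY-283 against vehicle (horizontal axis) for the 31 genes in pathway order. Black points give the fit to all 8 libraries, green ticks 13 other ways of processing and purple ticks the 8 fits with a library left out. FADS1 stays between -0.437 and -0.345, and EBP, ACAT2, FDFT1, SCAP and FDPS have ticks on both sides of 0.

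Of the 17 calls, 9 held under all 21 alternatives: MVK rose, and LSS, TM7SF2, HSD17B7, INSIG1, FASN, SCD, FADS1 and FADS2 fell. With median-of-ratios scaling 5 members rose and 8 fell, and under quantile normalization 5 rose and 11 fell. Over all genes the same scalings moved the share of increases among calls from 32.9% to 55.8% and 50.7%. The member median minus that of all genes tested was -0.08 on the log2 scale, and between -0.11 and -0.04 under the 21 alternatives.

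Deviations of the libraries from their group means were also compared between members, as a description over 8 libraries, each scaled to the same TPM total. The median pairwise correlation was 0.479 over the 21 pairs of mevalonate enzymes, 0.339 over the 15 pairs of fatty acid enzymes and -0.0249 over the 55 pairs from squalene to cholesterol, against 0.0169 over all pairs of genes tested. With LLY-283 replicate 4 left out of the correlations but kept in the group means, the values were 0.339, 0.523 and -0.00656.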

How the data were processed

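Poly(A) RNA from U251 cells was sequenced in 8 libraries, 4 vehicle and 4 LLY-283 (100 nM, 24 h). The submitters' processing notes name bcl2fastq 2.20, Cutadapt 1.18, STAR 2.7.0f, Picard and RSEM 1.3.1 on hg38, and the study's methods give other versions of STAR and RSEM. The authors deposited TPM per gene and library from RSEM on GENCODE models. TPM removes depth and length but not composition, so abundant genes can shift all others.

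From these values log2(TPM + 0.1) was fitted with limma 3.58.1 (lmFit, eBayes with trend) in R 4.3.3 for the 14478 genes that averaged 1 TPM or more, with group as the only term, and Benjamini-Hochberg adjustment ran over all of them. A call was an adjusted p-value under 0.05, and a fold of 1.5 was counted separately. The fit was tested on simulated data for this comparison on 14478 genes, with 200 of them changed. At a change of 0.3 on the log2 scale it recovered 63 (31.5%) with 5 unchanged genes called. At 0.6 it recovered 146 (73.0%) with 10, and at 1 it recovered 173 (86.5%) with 7. In the data 3788 genes were called, so the adjusted threshold lay at a higher p-value than in the simulation. These shares therefore do not give the power of the comparison.

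Members and lists were chosen with earlier results of these data known. Values per library are given for members that passed the test, for SREBF1, SREBF2, SCAP and INSIG1, and for the members with the highest and lowest levels. Of the further lists, up to 3 called genes per direction are named by size of change. 1 gene so chosen is not reported here. Positions are from GENCODE release 44 on GRCh38, and the other genes named are PRMT5, cell type markers, genes that overlap a named gene, and a pseudogene copy. Alternatives were pseudocounts of 0.5 and 1, minimum means of 0.5 and 5 TPM or none, quantile and median-of-ratios scaling, omission of mitochondrial genes, eBayes without trend, array weights, a replicate block, correction for GC content and length, alone and with the block (splines with 4 degrees of freedom, 14457 genes), and each library left out.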

Additional observations from a re-analysis of the deposited data

Results flagged for a closer look

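Each of the 31 genes gave 2 groups of 4 libraries, and in 8 of these 62 groups the highest or lowest library lay far from the other 3 for the group's range, where chance does this in about 1 of 20 groups. LLY-283 replicate 4 was the high library for FDFT1 (170.05 TPM), NSDHL (34.02 TPM) and EBP (120.68 TPM), which makes 3 of the 8, and it was also the library with the lower mitochondrial share. In LLY-283, TM7SF2 was high in replicate 3 (13.03 TPM) and SCD in replicate 1 (616.57 TPM). Among vehicle libraries EBP was high in replicate 2 (118.36 TPM), MVD low in replicate 3 (43.5 TPM) and SC5D low in replicate 4 (33.61 TPM). Of these genes MVD, TM7SF2 and SCD passed the test, and their calls held with each library left out in turn.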

How the results depend on the processing

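Of the 17 calls among members, 9 held under all 21 alternatives. Calls of HMGCS1 were lost under 13, NPC1 under 14, SREBF1 under 12, SQLE and ACACA under 11 each, CYP51A1 under 2, and MSMO1 and MVD under 1 each, and no called member changed direction. Calls were gained by ABCA1 and ACLY under 5 each, and by IDI1, PMVK and FDPS under 2 each. Uncalled members that changed sign were ACAT2, FDPS, FDFT1, EBP and SCAP. ACAT2 was at 0.046 with median-of-ratios scaling and at -0.052 to 0.01 with a library left out, the latter without LLY-283 replicate 3. FDPS was at 0.001 with that scaling. FDFT1 was at -0.002 without LLY-283 replicate 4, and SCAP at -0.01 without vehicle replicate 1. EBP was at -0.015 with array weights and -0.001 without mitochondrial genes. It was at -0.024 without LLY-283 replicate 4 and -0.004 without vehicle replicate 1. The highest values of FDFT1, EBP and SCAP were 0.036, 0.034 and 0.079 with a library left out. Over all alternatives they were 0.084, 0.068 and 0.098. The causes were not tested.

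The 5 increased members became 3 with GC and length trends removed, without trend, without filter and with a replicate block, and 1 with the block and GC and length trends removed. With a library left out there were 3 to 5 increased and 9 to 14 decreased members. The member median was -0.07 with median-of-ratios scaling and -0.135 to -0.094 with a library left out, the latter without vehicle replicate 1.

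Of mevalonate enzymes, the 2 increases became 1 with GC and length trends removed, without trend, mitochondrial genes or filter and in both block fits (1 to 2 with a library left out), and the 1 decrease became 2 with GC and length trends removed, 4 with array weights and 0 with median-of-ratios scaling (1 to 3 with a library left out). Of sterol enzymes, 0 rose with the block and GC correction. The 2 decreases of SREBP control genes became 1 under 6 alternatives, by the loss of SREBF1 (1 to 2 with a library left out). The transport decrease became 2 at a minimum of 0.5 TPM and a pseudocount of 1, and 0 with both scalings, no filter and both block fits (0 to 1 with a library left out). Further cholesterol genes had 0 increases with the block and GC correction and 3 decreases with median-of-ratios scaling (3 at the lowest with a library left out). Further fatty acid genes had 2 increases with array weights and 4 with median-of-ratios scaling (up to 2 with a library left out), and 3 decreases without trend, without filter and with that scaling, and 2 with the block and GC correction (3 at the lowest with a library left out).

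Over all genes, 1247 increases became 2165 with median-of-ratios scaling and 1871 with quantile normalization. Over 1.5-fold, 57 increases became 25 at a minimum of 5 TPM and 126 with quantile normalization, and 504 decreases became 202, 260 with quantile normalization and 313 with a pseudocount of 1. Same-numbered libraries did not deviate together (correlations of -0.0851 to 0.032), so the numbers were not used as a pairing. With the replicate block 3 members rose and 10 fell.

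Limits: TPM gives no depth, so counting error is unknown. The self-test recovered 31.5% of changes of 0.3 on the log2 scale over genes of all levels. It changed 200 genes, where 3788 were called in the data, so its threshold was stricter and the share is not the power here. A p-value that missed the threshold does not show that groups were alike.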
